A study of Mus musculus with 7 samples.

Results

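The heavy chain CDR3 is the loop of the B cell receptor that spans the joins of the V, D and J segments. B cells with a long loop were selected on the measured junction length: they are the cells with exactly 1 productive heavy chain whose junction had 54 or more bases. The junction runs from the conserved cysteine to the conserved tryptophan codon, so these cells had a CDR3 of 16 or more residues. They numbered 1720 of 17381 cells, and the comparison cells, with junctions of 30 to 51 bases, numbered 14905. A further 756 cells had shorter junctions and were not compared. Just inside the threshold, 926 cells had junctions of 54 bases, and just outside it 1449 cells had 51 bases. The longest junctions had 75 bases.

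The receptors were sequenced from single cells of deep cervical (dCLN), superficial cervical (sCLN) and inguinal (iLN) lymph nodes of female mice aged 10 to 11 months. WT mice were compared with 5xFAD mice, a transgenic line used to model Alzheimer's disease. Each node and genotype gave 1 library, so there were 6 libraries, each a composite of hashtagged cells whose animals were not told apart here. One more library pooled the 3 nodes of WT and 5xFAD mice, and its values are given with no test. The files held immunoglobulin contigs alone, so a B cell means a barcode with a productive heavy chain, and no marker gene could be checked. The libraries held 2107 to 3904 cells with 1 heavy chain and 99906 to 312484 UMIs, the counts of captured molecules. Of the cell barcodes, 174 occurred in more than 1 library, 39 of them in a cell with a long loop, and 0 shared a junction.

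A heavy chain gene is assembled by joining 1 D to 1 J segment and then 1 V segment to the pair. Nucleases trim the segment ends, and the enzyme terminal deoxynucleotidyl transferase adds bases that no segment encodes. These added bases are called N1 between V and D and N2 between D and J. The length of a CDR3 therefore depends on which segments were joined, how much of each was kept and how many N bases were added. Long loops are known to become rarer as B cells mature, and some long or charged loops are known to favour binding to self.

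The germline J segments are shown first because they differ in how many bases they can give to a junction. The part that precedes and includes the conserved tryptophan codon is shown on the minus strand of chromosome 12 in GRCm38, with that codon in capitals. Ighj1 lies at chr12:113429781-113429833, Ighj2 at chr12:113429468-113429567, Ighj3 at chr12:113429085-113429132 and Ighj4 at chr12:113428514-113428567.
Ighj1: ctactggtacttcgatgtcTGG
Ighj2: actactttgactacTGG
Ighj3: cctggtttgcttacTGG
Ighj4: attactatgctatggactacTGG
Ighj1 and Ighj4 can give 22 and 23 bases, against 17 each for Ighj2 and Ighj3.

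The germline D segments differ more widely in length, and those used most often or shortest are shown. Ighd1-1 lies at chr12:113482170-113482192, Ighd2-4 at chr12:113470694-113470710 and Ighd4-1 at chr12:113430528-113430538, all on the minus strand.
Ighd1-1: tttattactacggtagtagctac
Ighd2-4: tctactatgattacgac
Ighd4-1: ctaactgggac
Ighd1-1 has 23 bases, Ighd2-4 has 17 and Ighd4-1, which lies closest to the J segments, has 11.

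A pair of junctions from either side of the threshold shows how the same V, D and J genes gave both classes. Both used IGHV1-26, IGHD1-1 and IGHJ4, the commonest such combination, and the bases aligned to the D segment are in capitals. The first has 51 bases and is from the 5xFAD dCLN, and the second has 54 bases and is from the 5xFAD sCLN.
Comparison junction: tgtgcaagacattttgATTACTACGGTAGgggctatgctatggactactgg
Long junction: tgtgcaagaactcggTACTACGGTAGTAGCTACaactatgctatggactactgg
The shorter junction kept 13 D and 19 J bases with 7 and 3 N bases at its joins. The longer junction kept 18 D and 20 J bases with 6 and 1 N bases.

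For each J gene, the long junction carried by the most cells is shown, with ties settled by length and then by sequence, again with D bases in capitals.
IGHV14-2 IGHD1-1 IGHJ1: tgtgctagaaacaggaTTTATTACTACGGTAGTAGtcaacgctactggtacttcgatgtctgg
IGHV9-3 IGHD2-2/IGHD2-7/IGHD2-9 IGHJ2: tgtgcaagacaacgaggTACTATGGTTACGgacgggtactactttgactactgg
IGHV1-9 IGHD1-1 IGHJ3: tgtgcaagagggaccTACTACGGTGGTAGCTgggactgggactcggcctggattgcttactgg
IGHV5-4 IGHD1-1 IGHJ4: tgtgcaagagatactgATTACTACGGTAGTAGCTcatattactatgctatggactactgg
The IGHJ1 junction was in 3 cells of the WT dCLN, the IGHJ2 junction in 3 cells of the WT dCLN, the IGHJ3 junction in 2 cells of the WT iLN and the IGHJ4 junction in 3 cells of the 5xFAD dCLN. The IGHJ3 junction had 15 N2 bases, where the IGHJ4 junction had 3.

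The longest junctions show the same parts at their extreme. One of 75 bases was in the 5xFAD dCLN and another of 75 bases in the WT sCLN, and the longest in each of the other libraries had 69 bases.
IGHV5-6/IGHV5-6-1 IGHD1-1 IGHJ4: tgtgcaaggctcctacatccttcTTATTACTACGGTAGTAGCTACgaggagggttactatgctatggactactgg
IGHV1-59 IGHD1-1 IGHJ3: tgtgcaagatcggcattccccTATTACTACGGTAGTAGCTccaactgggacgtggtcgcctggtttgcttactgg
The first kept 22 bases of the D segment and 22 of the J segment with 15 N1 and 8 N2 bases. The second used the shorter IGHJ3 and had 12 N1 and 18 N2 bases. Within its N2 stretch a run of 9 bases matched Ighd4-1.

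Cells with a long loop were a similar share of every library. They made up 10.1% of the WT dCLN (341 of 3374 cells, exact 95% interval 9.11% to 11.2%) and 10.4% of the 5xFAD dCLN (407 of 3904, 9.48% to 11.4%). The WT sCLN had 8.98% (309 of 3440, 8.05% to 9.99%) and the 5xFAD sCLN 9.93% (234 of 2356, 8.75% to 11.2%). The WT iLN had 10.4% (228 of 2200, 9.12% to 11.7%) and the 5xFAD iLN 9.54% (201 of 2107, 8.32% to 10.9%). These intervals overlap among all 6 libraries, and they cover counting error only. The 5xFAD share minus the WT share was 0.32 percentage points in dCLN, 0.95 in sCLN and -0.82 in iLN. The mean difference was 0.15 ± 0.90 points (SD, n = 3 nodes, p = 0.75, exact two-sided sign-flip permutation test, which cannot go below 0.25 here). Its direction turned when each clone was counted once, at -0.0064 points.

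The largest part of the extra length was D sequence. The length itself chose the cells, so its parts are described without a test. Long junctions averaged 56.3 bases and comparison junctions 41.6, a difference of 14.7 bases. D bases averaged 16.3 in long and 9.81 in comparison junctions, which is 44.2% of the difference. Junctions with no D segment assigned (1 long, 1246 comparison) were scored as having no D bases, with their middle bases counted as N. This scoring adds to the D difference and takes from the N difference, by an amount that was not computed. J-encoded bases averaged 19.1 and 15.9 (21.5% of the difference), N1 bases 7.0 and 4.29 (18.5%), N2 bases 4.26 and 2.63 (11.1%) and V-encoded bases 9.64 and 8.96 (4.62%). The D difference was 5.99 to 6.79 bases over the 6 libraries and the J difference 3.00 to 3.39, so the order of these 2 parts was the same in each library.

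N addition was almost universal in long junctions. The total of N bases averaged 11.3 ± 4.23 (SD over 1720 cells) against 6.92 ± 3.60 in comparison cells. Of the long junctions 2 had no N base, against 225 comparison junctions (1.51%). Long junctions with 20 or more N bases numbered 77 (4.48%), against 33 comparison junctions (0.221%). The share of G and C among N bases was 64.8% in long and 67.9% in comparison junctions, with G at 40.4% and 45.9%. Only 1 long junction had no D segment assigned, against 1246 comparison junctions (8.36%). The bases between the V and J parts of such junctions are included in these N counts.

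**Figure D1:**
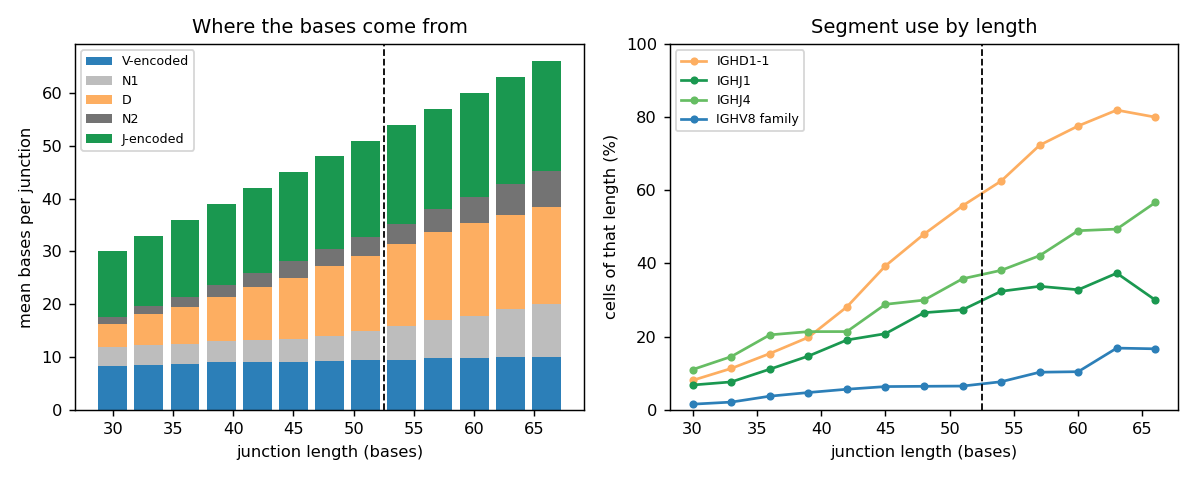
Mean bases of each part per junction (left) and the percentage of cells using 4 segments (right), both against junction length in bases, over all 6 libraries and lengths held by 20 or more cells. The dashed line separates comparison from long junctions, and D bases grow from a small part of short junctions to a mean of 15.6 at 54 bases.

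The J genes with the longest germline ends dominated the long junctions. IGHJ4 was used by 41.5% of long and 24.0% of comparison cells, and IGHJ1 by 33.0% and 17.9%. IGHJ2 made up 16.0% of long and 34.5% of comparison cells, and IGHJ3 9.53% and 23.7%. By library, IGHJ4 in long cells was 44.6% in WT dCLN, 44.7% in 5xFAD dCLN, 36.9% in WT sCLN, 36.3% in 5xFAD sCLN, 39.9% in WT iLN and 44.3% in 5xFAD iLN. Each of these lay above the comparison range of 22.9% to 25.5%. IGHJ1 in long cells ranged from 28.5% to 36.3%, also above all comparison values (16.8% to 18.5%).

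IGHD1-1, the longest of the D segments shown, was the D segment of 1172 long cells. That is 68.1% of long and 29.9% of comparison cells. Its share of long cells was 68.9% in WT dCLN, 67.6% in 5xFAD dCLN, 73.1% in WT sCLN, 65.8% in 5xFAD sCLN, 65.8% in WT iLN and 65.7% in 5xFAD iLN, and no comparison value was above 32.2%. The IGHD2 family, known as DSP2, supplied 29.0% of long and 35.4% of comparison cells. The IGHD3 family, known as DST4, supplied 1.45% and 5.66%. IGHD4-1, known as DQ52, was in 13 long cells (0.756%) and in 1620 comparison cells (10.9%). These shares count calls of that segment or family alone, and joint calls that include IGHD1-1 beside other families are left out. Calls naming several families were 0.233% of long and 5.03% of comparison cells, and cells with no D call 0.058% and 8.36%. How far this lowers the comparison shares was not tested.

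Calls within the IGHD2 family did not all differ alike. Several joint calls share a gene, so a contrast between them is not a contrast between genes. The joint call IGHD2-4/IGHD2-9 was at 10.3% of long and 10.0% of comparison cells. IGHD2-3 was at 5.58% and 7.62%, and IGHD2-5/IGHD2-6 at 4.48% and 5.15%. Joint calls that named IGHD2-1/IGHD2-8 were at 1.86% and 0.751%, and those naming IGHD2-2/IGHD2-7 at 1.69% and 0.362%. Those naming IGHD2-2/IGHD2-7/IGHD2-9 stood at 1.63% and 2.48%, and those naming IGHD2-1/IGHD2-10/IGHD2-11 at 1.51% and 1.80%. IGHD3-2 was at 1.40% and 3.47%. Joint D calls covered 23.9% of long and 36.5% of comparison cells.

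**Figure D2:**
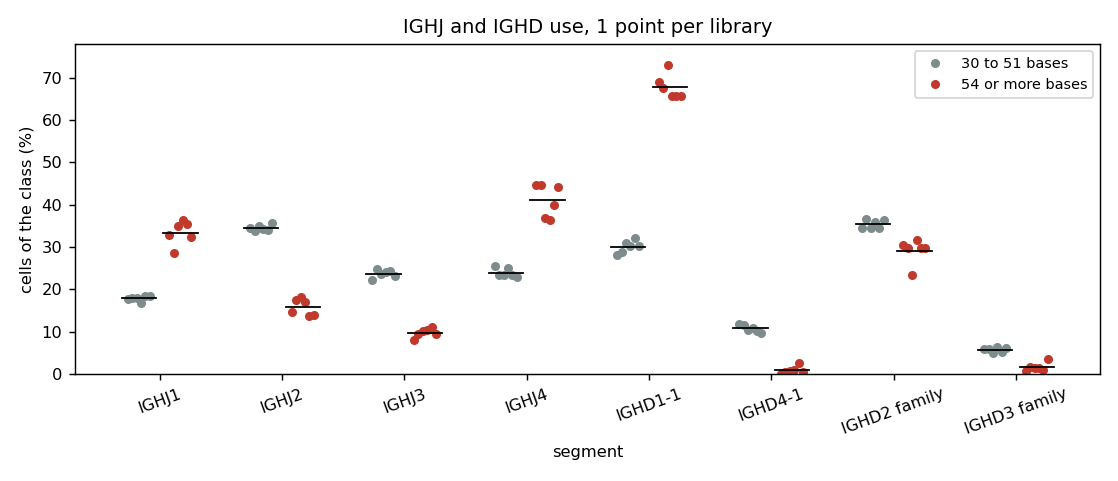
Percentage of cells of each class that used an IGHJ or IGHD segment or family, 1 point per library, with black lines at the mean of 6 libraries. IGHD1-1 lies between 65.7% and 73.1% in long cells and between 28.0% and 32.2% in comparison cells.

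The share of long junctions differed with the pair of D and J segments. Among cells with IGHD1-1, 34.2% were long with IGHJ4 (424 of 1238, exact 95% interval 31.6% to 37.0%) and 29.5% with IGHJ1 (449 of 1521, 27.2% to 31.9%). With IGHJ2 the share was 10.1% (195 of 1923, 8.83% to 11.6%) and with IGHJ3 10.6% (104 of 985, 8.71% to 12.6%). With IGHD2 family segments, 15.7% were long with IGHJ4, 12.9% with IGHJ1, 4.34% with IGHJ2 and 3.27% with IGHJ3. D and J bases count in the junction length that chose the cells, so these shares are described without a test. The intervals cover counting error only.

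Long junctions built from shorter segments carried more N bases. As N bases count in the length that chose the cells, these means are described without a test. The IGHD1-1 and IGHJ1 pair had a mean of 9.35 N bases in long cells and 5.23 in comparison cells. The IGHD2 and IGHJ2 pair had 14.9 and 7.31, and the IGHD2 and IGHJ3 pair 14.7 and 7.37. Long IGHD2 and IGHJ2 junctions kept 14.6 D bases, where long IGHD1-1 and IGHJ1 junctions kept 17.3. The 13 long IGHD4-1 junctions averaged 13.9 N bases and 20.3 J bases.

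Use of these segments also grew with length inside the long class. IGHD1-1 was in 55.8% of cells at 51 bases, 62.5% at 54, 72.3% at 57, 77.6% at 60 and 79.2% at 63 or more. IGHJ4 went from 38.1% at 54 bases to 52.0% at 63 or more, while IGHJ1 stayed between 32.4% and 34.4%. The mean number of N bases was 10.2 at 54 bases and 16.0 at 63 or more. The 125 cells of 63 or more bases thus had both the longest D and J parts and the most N bases.

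Trimming of IGHD1-1 was also lighter in long junctions. Kept D bases count in the length that chose the cells, so this follows from the rule and is only described. Long junctions kept a mean of 17.6 of the 23 bases of IGHD1-1, against 13.7 in comparison junctions, and 27.2% kept 20 or more of them, against 5.97%. A D segment can be read in 3 frames, and where 9 or more D bases were kept the tyrosine-rich frame of IGHD1-1 was used in 80.0% of long junctions (75.6% to 84.4% over libraries). In comparison junctions it was used in 76.3% (75.4% to 77.8%). The hydrophobic frame was at 19.4% and 20.7%, and the frame with a stop codon at 0.601% and 2.99%.

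A match to a second D segment inside the N bases was rare. Runs of 9 or more matching bases were found in 5 of 1719 long junctions with a D call (0.291%) and in 3 of 13659 comparison junctions (0.022%). Long junctions hold longer N stretches in which such a run can occur. The longest run was 11 bases of Ighd4-1 after IGHD1-1, in a 60-base junction with IGHV2-2 and IGHJ2 from the WT iLN.

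As a share of residues, long loops were richer in tyrosine and serine and poorer in alanine and arginine. These residue shares follow from the same junctions as the rule and are given as a description. Tyrosine was 24.3% of CDR3 residues in long cells (23.7% to 24.9% over libraries) and 20.4% in comparison cells (20.3% to 20.6%). Serine was 8.89% and 6.40%, valine 4.88% and 3.75%, proline 2.54% and 1.94%, and isoleucine 1.78% and 1.09%, each higher in 6 of 6 libraries. Alanine was 10.4% and 13.0%, arginine 7.82% and 9.44%, aspartate 9.43% and 10.8%, phenylalanine 4.53% and 6.06%, and leucine 1.86% and 2.70%, each lower in 6 of 6 libraries. Counted per loop, alanine and arginine were more numerous in the longer loops, with means of 1.73 against 1.54 alanines and 1.31 against 1.12 arginines.

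A long loop held 4.06 ± 1.39 tyrosines (SD over cells) and a comparison loop 2.42 ± 1.24. Loops with 5 or more tyrosines were 39.6% of long and 5.35% of comparison loops. Between the V-encoded and J-encoded ends, tyrosine was 24.3% of residues in long and 18.0% in comparison cells, glycine 16.7% and 19.9%, and serine 15.8% and 12.3%. Arginine, a positively charged residue, was 4.16% and 5.56% of residues there.

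The net charge of the loop, as lysines and arginines minus aspartates and glutamates, averaged -0.46 ± 1.27 (SD over cells) in long and -0.28 ± 1.21 in comparison cells, and its library means did not overlap (-0.52 to -0.39 against -0.32 to -0.26). This charge is a sum over residues, and long loops averaged 16.8 residues against 11.9, so it is not independent of the rule. A loop with at least 1 cysteine occurred in 28 long cells (1.63%, exact 95% interval 1.08% to 2.34%) and in 283 comparison cells (1.90%, 1.69% to 2.13%), and these intervals overlap. None of the 1720 long loops had 2 or more cysteines, the pattern that would permit a disulfide bond within the loop (exact upper limit 0.214%). Among 14905 comparison loops 5 did (0.0335%), a share below that limit, so these counts cannot tell the 2 classes apart.

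**Figure D3:**
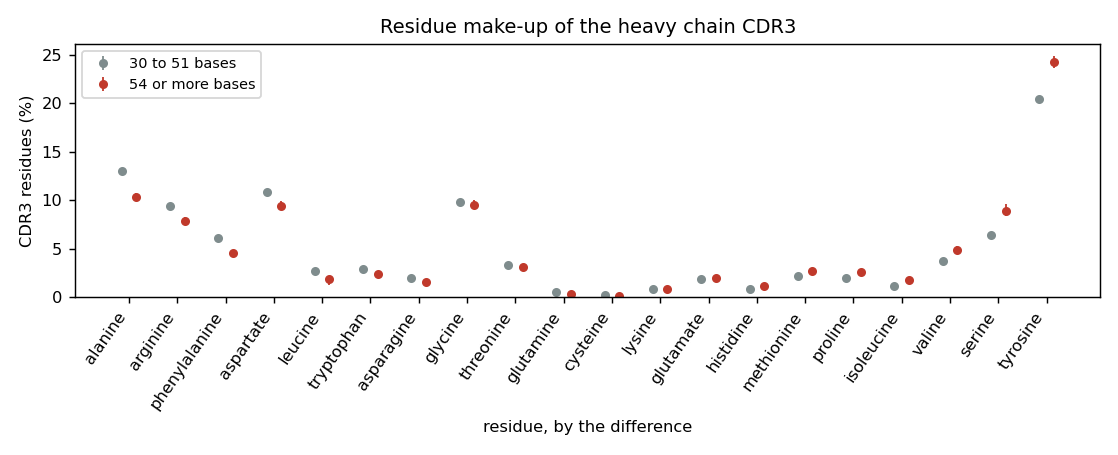
Share of each residue among heavy chain CDR3 residues (percent), for long and comparison cells, ordered by the difference. Points are all cells of the class and bars span the lowest to the highest library, with tyrosine at 24.3% in long and 20.4% in comparison cells.

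V gene use was tested over 61 IGHV genes with edgeR's quasi-likelihood test on numbers of cells, with the library as a block and Benjamini-Hochberg adjustment. V-encoded bases belong to the junction, so this test is not independent of the rule. Of these genes 5 passed (8.20%), of which 2 rose in long cells (3.28%) and 3 fell (4.92%). With TMM scaling 4 were higher and 3 lower, the added genes being IGHV3-6 and IGHV8-12. None passed when junction length was counted without V-encoded bases, an alternative chosen after seeing the data (9 of 61 genes had an unadjusted p under 0.05, smallest adjusted p 0.0908). That alternative set both classes anew, with long cells at 45 or more bases outside V and comparison cells at 21 or more but under 45. It held 1470 long and 15175 comparison cells, and 1418 of the 1720 long cells stayed long. No gene passed at 60 or more bases either, where fewer long cells entered and 11 genes had an unadjusted p under 0.05 (smallest adjusted p 0.0664). The log2 differences there were 1.99 for IGHV1-62-2/IGHV1-71 and 1.19 for IGHV8-8.

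The genes that rose have long germline 3′ ends, shown here from the conserved cysteine codon, in capitals, to the end of the gene model, beside 2 genes with shorter ends.
Ighv1-71: TGTgcaagacacgaaga
Ighv1-62-2: TGTgcaagacacgaaga
Ighv8-8: TGTgctcgaatag
Ighv1-26: TGTgcaaga
Ighv6-3: TGCacagg
Ighv1-71 (chr12:115742205-115742647) and Ighv1-62-2 (chr12:115446409-115446869) end identically with 17 bases, and calls could not separate them. Ighv8-8 (chr12:115294062-115294504) has 13 bases and Ighv1-26 (chr12:114788372-114788805) has 9. All are on the minus strand of chromosome 12 in GRCm38.

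IGHV1-62-2/IGHV1-71 was used by 45 long cells (2.62%) and 131 comparison cells (0.879%). Its share of long cells was 2.64% in WT dCLN, 2.70% in 5xFAD dCLN, 1.94% in WT sCLN, 2.14% in 5xFAD sCLN, 3.07% in WT iLN and 3.48% in 5xFAD iLN, and no comparison value was above 1.11%. The log2 difference was 1.59 (SE 0.31, adjusted p = 4.45e-05 by edgeR, higher in 6 of 6 libraries). With the classes set anew without V-encoded bases it was -1.63 (adjusted p = 0.0908 by edgeR). Over the 16 alternatives the adjusted p ranged from 1.38e-06 to 0.0908.

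IGHV8-8, the most used V gene of long cells, was in 105 of them (6.10%) and in 463 comparison cells (3.11%). Its share of long cells was 7.33% in WT dCLN, 5.41% in 5xFAD dCLN, 6.15% in WT sCLN, 2.56% in 5xFAD sCLN, 7.46% in WT iLN and 7.96% in 5xFAD iLN. It was below the comparison value of the same library in the 5xFAD sCLN (2.80%), and above it in the other 5. The log2 difference was 0.97 (SE 0.19, adjusted p = 4.45e-05 by edgeR). Without V-encoded bases it was -0.23 (adjusted p = 0.695), the highest adjusted p of its 16 alternatives, which began at 4.41e-08.

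The genes that fell were each in few long cells. IGHV14-4 (chr12:114176438-114176867) was in 3 long cells (0.174%) and 196 comparison cells (1.31%), with a log2 difference of -2.85 (SE 0.63, adjusted p = 0.000273 by edgeR). IGHV1-85 (chr12:116000028-116000461) was in 3 and 117 cells (log2 difference -2.12, SE 0.69, adjusted p = 0.0317). IGHV1-74 (chr12:115802648-115803080) was in 6 and 172 cells (log2 difference -1.70, SE 0.53, adjusted p = 0.0261). IGHV14-4 and IGHV1-74 were lower in 6 of 6 libraries and IGHV1-85 in 5. IGHV1-85 and IGHV1-74 did not pass with DESeq2, where their adjusted p-values were 0.242 and 0.127. Over their 16 alternatives the adjusted p-values ran from 0.00337 to 0.254 for IGHV1-85 and from 0.0158 to 0.225 for IGHV1-74. Without any 1 of the WT dCLN, 5xFAD dCLN, WT sCLN and WT iLN libraries neither passed, and without the 5xFAD iLN IGHV1-85 did not. IGHV14-4 did not pass without V-encoded bases (adjusted p = 0.0908), without IGHJ1 and IGHJ4 cells (0.162) or from 60 bases (0.225), and the lowest adjusted p of its 16 alternatives was 8.41e-05. The 3 genes kept their direction without V-encoded bases, at log2 differences of -1.63 for IGHV14-4, -1.88 for IGHV1-85 and -1.22 for IGHV1-74, though none passed (adjusted p = 0.0908, 0.0908 and 0.218 by edgeR).

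The other most used V genes of long cells did not pass the test. IGHV1-26 was in 98 long cells (5.70%, against 6.18%, log2 difference -0.12, SE 0.16), and IGHV9-3 (chr12:114140692-114141122) in 85 (4.94%, against 4.09%, log2 difference 0.25, SE 0.18). Their adjusted p-values by edgeR were 0.631 and 0.434.

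Among the 15 V families, IGHV8 rose and IGHV6, IGHV14 and IGHV1 fell by the same test (4 of 15, 26.7%, with 1 higher, 6.67%, and 3 lower, 20.0%). V-encoded bases count in the junction length that chose the cells, so these family differences are not independent of the rule either. IGHV8 was in 9.30% of long and 5.05% of comparison cells (log2 difference 0.88, SE 0.15, adjusted p = 1.5e-06 by edgeR, higher in 6 of 6 libraries). IGHV6 differed by -1.30 (SE 0.37), IGHV14 by -0.84 (SE 0.22) and IGHV1, the large family distal to the D segments, by -0.14 (SE 0.05), each lower in 6 of 6 libraries. With V-encoded bases taken off, 0 of 15 families passed (3 had an unadjusted p under 0.05). IGHV8 was then at -0.29 (SE 0.21) and IGHV1 at 0.10 (SE 0.06), both turned in direction, while IGHV6 stayed at -1.02 (SE 0.37) and IGHV14 at -0.39 (SE 0.22).

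The mean number of V-encoded bases was 11.4 in IGHV8, 8.64 in IGHV1, 7.85 in IGHV14 and 7.05 in IGHV6. Of the 9 tested genes with a mean of 10 or more V-encoded bases, 9 had a positive log2 difference, and 2 had one after V-encoded bases were taken off. Of the 6 genes with a mean below 8, 1 had a positive difference, and again 1 after V-encoded bases were taken off. The median log2 difference over all 61 genes was -0.22.

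The remaining families did not pass. IGHV5 had a log2 difference of 0.27 (SE 0.13), IGHV2 0.21 (SE 0.14), IGHV3 0.33 (SE 0.18), IGHV9 0.08 (SE 0.17), IGHV10 0.10 (SE 0.34), IGHV7 0.48 (SE 0.38), IGHV15 1.06 (SE 0.66), IGHV13 0.06 (SE 0.82), IGHV4 -0.37 (SE 0.48), IGHV11 -0.52 (SE 1.37) and IGHV12 0.27 (SE 1.48). Together the families IGHV4, IGHV7, IGHV11 and IGHV12, which include the V genes typical of B-1 cells, made up 36 long cells (2.09%) and 1.93% of comparison cells, and were higher in 3 of 6 libraries. IGHV2 and IGHV5, proximal to the D segments, together made up 18.5% of long and 15.7% of comparison cells, higher in 6 of 6. Without V-encoded bases their log2 differences were -0.09 (SE 0.17) and 0.02 (SE 0.15).

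**Figure D4:**
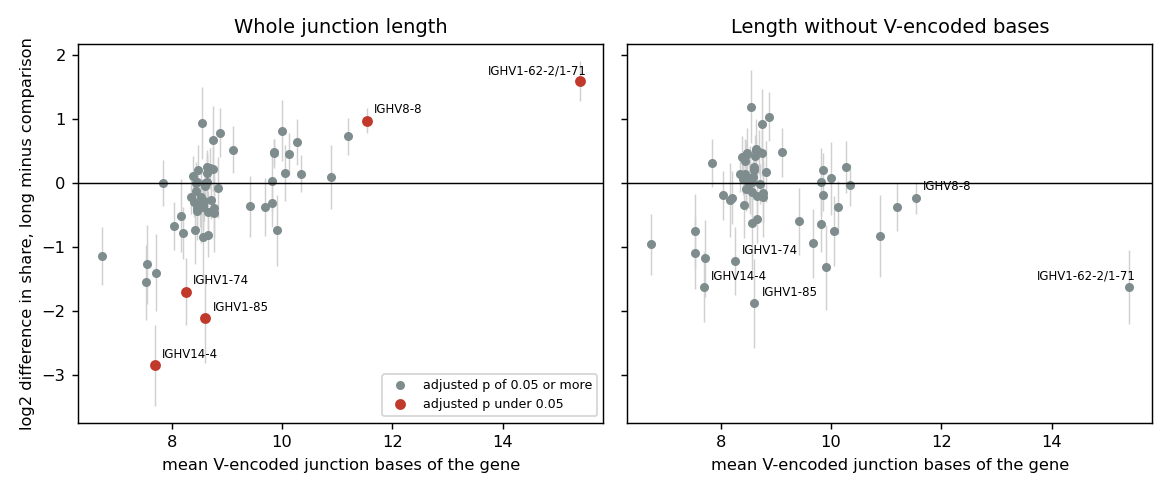
Log2 difference in share between long and comparison cells for 61 IGHV genes (error bars, SE) against the mean V-encoded junction bases of each gene, with classes set by the whole junction (left) or by its length without V-encoded bases (right). The 5 genes past an adjusted p of 0.05 on the left are named in both panels, and none passes on the right.

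The light chain does not enter the rule, and few differences in its V gene use passed. Over cells with exactly 1 light chain (1560 long, 13506 comparison), 0 of 61 genes rose and 1 fell (1.64%) by the same edgeR test, and 4 had an unadjusted p under 0.05. The gene that fell was IGKV6-32 (chr6:70074024-70074603, minus strand), in 11 long cells (0.705%) and 325 comparison cells (2.41%). Its share of long cells was 1.01% in WT dCLN, 1.34% in 5xFAD dCLN, 0.707% in WT sCLN, 0 of 221 cells in 5xFAD sCLN, which allows up to 1.36%, 0.498% in WT iLN and 0 of 185 cells in 5xFAD iLN, which allows up to 1.62%. Each of these lay below the comparison range of 2.03% to 2.95%. The log2 difference was -1.79 (SE 0.42, adjusted p = 0.00163 by edgeR).

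IGKV6-32 did not pass without the WT iLN library (log2 difference -1.75, adjusted p = 0.0943) or with long junctions taken from 60 bases (-1.15, adjusted p = 0.934), and its lowest adjusted p over 14 alternatives was 0.000359. In the pooled library, which no test used, it stood the other way, at 6 long cells (2.83% of 212) and 28 comparison cells (1.52%). IGKV8-21 (5 long and 158 comparison cells, log2 difference -1.83), IGKV12-98 (1 and 70, -2.83) and IGKV4-72 (38 and 206, 0.68) did not pass. Their unadjusted p was under 0.05, and their adjusted p-values by edgeR were 0.184, 0.221 and 0.642. The most used light chain genes of long cells did not pass. IGKV10-96 was in 109 long cells (6.99%, against 5.44%), IGKV1-117 in 54 (3.46%, against 3.57%) and IGKV17-127 in 51 (3.27%, against 2.49%). The lambda genes IGLV1, IGLV2 and IGLV3 had log2 differences of -0.23, -0.08 and -0.06 and did not pass.

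For 10 measures of isotype, mutation and light chain state, the difference between long and comparison cells was taken within each library. The exact two-sided sign-flip permutation test over 6 libraries cannot give a p below 0.03125. None of the 10 passed after Benjamini-Hochberg adjustment (0% past an adjusted p of 0.05, with 1 at an unadjusted p under 0.05).

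The most regular of them was IgD, one of the 2 constant regions of unswitched B cells. Among unswitched cells, the heavy chain contig was IgD in 31.2% of long and 27.7% of comparison cells of WT dCLN, 18.6% and 16.4% in 5xFAD dCLN, and 26.0% and 23.5% in WT sCLN. The values were 21.8% and 19.2% in 5xFAD sCLN, 23.7% and 21.8% in WT iLN, and 23.3% and 20.2% in 5xFAD iLN. The long cells were higher in 6 of 6 libraries, by 2.63 ± 0.58 points (SD, n = 6, exact permutation p = 0.03125, adjusted p = 0.208). The rest of the unswitched cells carried IgM.

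The IgD share moved strongly with the number of heavy chain UMIs in a cell. It was 55.3% in long and 61.0% in comparison cells of 1 to 2 UMIs, 51.9% and 51.8% at 3 to 5, and 35.9% and 26.8% at 6 to 10. At 11 to 20 UMIs it was 11.9% and 11.2%, and at 21 or more 2.54% and 2.99%. The difference thus lay mostly in cells of 6 to 10 UMIs. With the UMI ranges weighted equally between classes, chosen after seeing the data, the long cells were higher by 2.51 ± 1.23 points (SD, n = 6, higher in 6 of 6 libraries). The mean log2 number of heavy chain UMIs differed by -0.0021 ± 0.062 between the classes (SD, n = 6).

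Class switching, the exchange of IgM and IgD for IgG or IgA after activation, was rare in both classes. Of 1692 long cells with a constant region call, 64 were switched (3.78%), and of 14740 comparison cells 478 (3.24%). By library the switched share of long cells was 4.18% in WT dCLN, 4.74% in 5xFAD dCLN, 4.32% in WT sCLN, 3.85% in 5xFAD sCLN, 2.67% in WT iLN and 1.53% in 5xFAD iLN. The within-library difference was 0.60 ± 0.58 points (SD, n = 6, higher in 5 of 6, exact permutation p = 0.0625, adjusted p = 0.208). The 64 switched long cells were 20 IgG2c, 18 IgG2b, 15 IgG1, 7 IgA and 4 IgG3 cells.

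Somatic mutation, which accumulates in germinal centres, was measured before the junction so that the rule did not touch it. Switched long cells carried a mean of 2.20% mutated V bases and switched comparison cells 2.66%. The mean of long cells was 1.65% in WT dCLN (14 cells), 2.64% in 5xFAD dCLN (19), 2.03% in WT sCLN (13), 2.27% in 5xFAD sCLN (9), 2.46% in WT iLN (6) and 2.11% in 5xFAD iLN (3). The difference was -0.43 ± 0.66 points (SD, n = 6, lower in 5 of 6, exact permutation p = 0.1875, adjusted p = 0.469). It was -0.24 without the WT dCLN and -0.61 without the 5xFAD dCLN. Among unswitched cells, V mutation of 1% or more was seen in 6 of 1628 long cells (0.369%) and 71 of 14251 comparison cells (0.498%).

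The light chain measures likewise did not pass. IGKJ4 and IGKJ5, the downstream kappa J genes, were used by 43.9% of long and 40.6% of comparison kappa cells. The difference was 2.68 ± 2.60 points (SD, n = 6, higher in 5 of 6, exact permutation p = 0.0625, adjusted p = 0.208). Lambda light chains were in 3.97% and 4.53% of cells, with a within-library difference of -0.55 ± 1.80 points (SD, n = 6), which ran from -0.98 without the WT dCLN to -0.11 without the 5xFAD dCLN. Cells with 2 or more light chains were 8.14% and 8.31% (difference -0.12 ± 2.00 points), and cells with none 1.16% and 1.07% (difference -0.029 ± 0.67 points). The mean light chain junction was 33.0 bases in both classes, with a difference of 0.012 ± 0.11 bases.

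**Figure D5:**
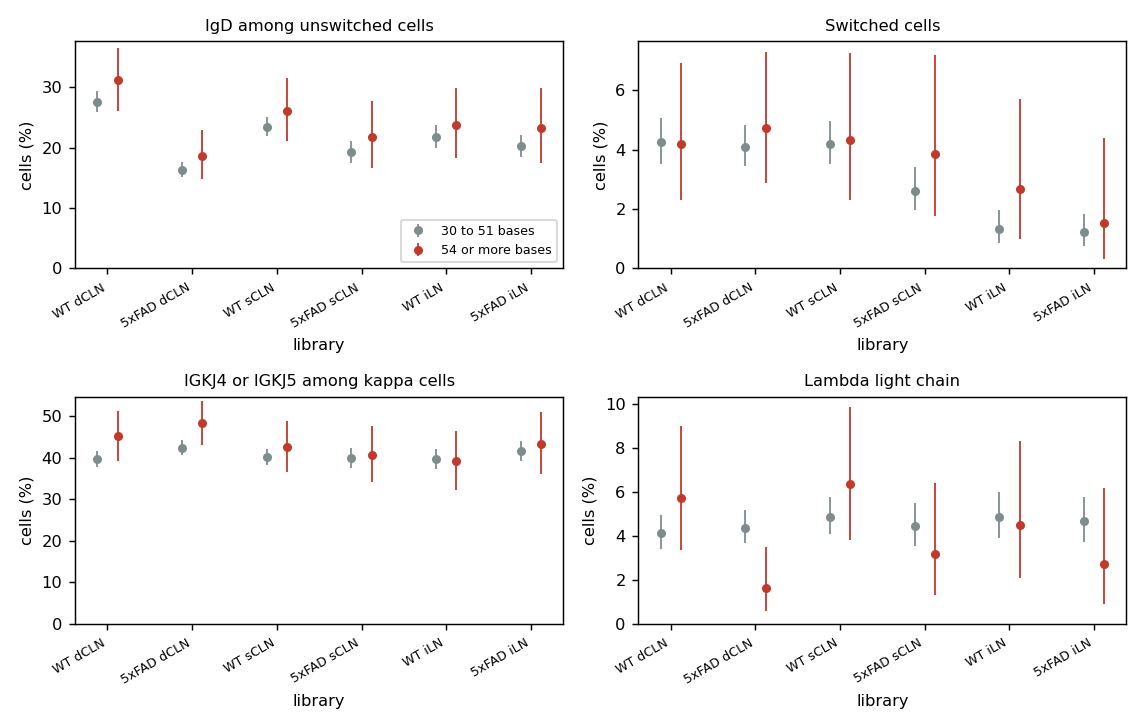
IgD share of unswitched cells, switched share, IGKJ4 or IGKJ5 share of kappa cells and lambda share (percent) in each of 6 libraries, for long and comparison cells, with exact 95% intervals that cover counting error only. The IgD share of long cells is above that of comparison cells in 6 of 6 libraries, though the intervals overlap within each library.

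Long cells were also compared between genotypes, with the 2 libraries of a node as a pair. No measure could reach a p below 0.25. Of the 10 measures 3 had 1 sign in all 3 nodes (exact permutation p = 0.25, adjusted p = 0.833 for each). By chance alone a measure has 1 sign in 3 nodes with a probability of 0.25, so 3 of 10 is near that share. Cells with 2 or more light chains were lower in 5xFAD, with differences of -3.14, -2.64 and -4.44 points in dCLN, sCLN and iLN. The values were 10.3%, 7.77% and 11.4% in WT and 7.13%, 5.13% and 6.97% in 5xFAD. In comparison cells they were 9.67%, 7.85% and 8.21% in WT and 8.37%, 7.90% and 7.39% in 5xFAD, so the sCLN stood the other way there. The lambda share was lower in 5xFAD, at 1.61%, 3.17% and 2.70% against 5.70%, 6.36% and 4.48% in WT. In comparison cells it was 4.37%, 4.45% and 4.65% in 5xFAD against 4.11%, 4.87% and 4.87% in WT, so the dCLN stood the other way there. The IgD share was 18.6%, 21.8% and 23.3% in 5xFAD and 31.2%, 26.0% and 23.7% in WT, and comparison cells of the same libraries had the same order of genotypes in each node. The IgD share falls as heavy chain UMIs rise, as given above. Long cells had a median of 13, 13 and 11 such UMIs in 5xFAD and 10, 10 and 12 in WT. Whether this accounts for the genotype difference in IgD was not tested. Over 21 IGHV genes with enough long cells, 0 passed (0%) by edgeR's quasi-likelihood test with node as a block, and 2 had an unadjusted p under 0.05. These were IGHV2-2 (67 long cells, log2 difference -0.93, SE 0.33) and IGHV5-4 (log2 difference 1.08, SE 0.42), both with an adjusted p of 0.30.

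Most long junctions were seen in 1 cell. The 1720 cells held 1642 different junctions. Clones were set by V gene, J gene, junction length and junction similarity alone, so a clone can join cells of separate rearrangements. By that rule 207 long cells (12%, exact 95% interval 10.5% to 13.7%) belonged to a clone of 2 or more cells within their library, against 13.3% (12.7% to 13.8%) of comparison cells. By library this share was 16.7% in WT dCLN, 12.5% in 5xFAD dCLN, 12.9% in WT sCLN, 10.3% in 5xFAD sCLN, 6.14% in WT iLN and 10.4% in 5xFAD iLN. No long junction was found in more than 1 of the 6 libraries (0 of 1642, which allows up to 0.183%). Among comparison junctions 51 of 14157 were (0.36%). A repeat is likelier in a class with more junctions, so these 2 shares cannot be set against each other.

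The largest long clones under this rule had 4 cells. A WT dCLN clone with IGHV2-2, IGHJ4 and a 63-base junction held IgA, IgG2c and IgM cells and 1 cell with no call, and all 4 paired with IGKV17-127. Groups of 4 IgM cells with IGHV3-6, IGHD1-1 and IGHJ1 met the rule in the 5xFAD dCLN and the 5xFAD sCLN, and had no V mutation. The 4 cells in the sCLN carried 4 different junctions and 4 different light chain V genes. Those in the dCLN carried 3 junctions and 3 light chain V genes, with IGKV3-7 in 2 of them. Neither group can therefore be taken as the offspring of 1 cell. A 5xFAD dCLN clone of 3 IgG3 cells used IGHV7-1 and IGHJ1 and had 2.41% V mutation. Another there, with IGHV8-8 and IGHJ3, held IgG1, IgG3 and IgM cells that all carried IGKV3-5.

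In the pooled library, 238 of 2488 cells were long (9.57%). IGHD1-1 was in 68.5% of its long and 24.8% of its comparison cells, IGHJ4 in 41.6% and 21.8%, and IGHJ1 in 34.0% and 20.4%. IGHV1-62-2/IGHV1-71 was in 13 long cells (5.46%) and 18 comparison cells (0.85%). Its IgD share stood the other way from the 6 libraries, at 21.6% in long and 23.8% in comparison unswitched cells.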

How the data were processed

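B cell receptor libraries were made with a Chromium 5′ single-cell kit from hashtagged, pooled cells of viability above 87%, per the labels' protocols. The submitters' processing notes name the build mm10, Seurat 4.1.0 and Cell Ranger 6.0.1, whose roles are not stated in the material used here. The tables list 1 assembled contig per line with germline calls, per the file headers. Which germline reference the calls came from is not given in the sources used here. Per contig, UMI and read numbers are counts as the authors deposited them. The deposited V identity is a fraction of identical V bases. The members and gene lists were chosen with earlier results of these data known.

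Barcodes with more than 1 productive heavy chain, 7 to 44 per library of which held a long junction, can be doublets and were not used. No doublet caller was run. V-encoded, N1, D, N2 and J-encoded bases were read from the deposited alignment positions and summed to the junction in every cell. V mutation was counted over at least 200 compared bases before the junction. Clones shared V gene, J gene and junction length at a Hamming distance of at most 0.15, by single linkage within a library. Germline segments and positions were those of GENCODE M21 (GRCm38).

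V gene use was tested with edgeR 4.0.16 (R 4.3.3) on numbers of cells in 12 columns (6 libraries by 2 classes), with the number of cells as library size, no TMM scaling and genes averaging 5 or more cells per column. DESeq2 1.42.0 was an alternative. The method was tested on simulated data. Measures used exact sign-flip permutation tests with Benjamini-Hochberg adjustment over 10 measures. With 1 library per node and genotype, and animals not told apart, p-values measure only the spread between these libraries. Cells of a clone are not independent, so exact Clopper-Pearson 95% intervals cover counting error only. Named genes were all IGHJ genes, IGHD genes at 1% or more of long cells, all IGHV families, V genes past the threshold at 0.5% or more of either class (up to 8 each way) and the 3 most used heavy and light V genes. Other genes are named where a count of 5 or fewer called for it, or beside a clone or sequence, after their values were seen. Alternatives varied the UMI minimum (3), clone counting, the length limits, scaling, the low-count filter, the library block and each library.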

Additional observations from a re-analysis of the deposited data

Results flagged for a closer look

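The difference in mean light chain junction length between long and comparison cells was 0.215 bases in the WT dCLN, apart from the other 5 libraries, which lay between -0.068 and 0.021 bases. Chance flags about 1 in 20 such groups, and 10 measures were looked at. The library pooled from all nodes, which entered no comparison, also held cells with a long loop, at 9.57% (238 of 2488 cells, exact 95% interval 8.44% to 10.8%).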

How the results depend on the processing

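Of the values recomputed under the alternatives, 286 stayed the same, 29 turned in direction and 22 kept the direction but no longer passed. A further 11 were counts that moved by over 1.5 times. Staying the same meant keeping direction and side of the threshold, or for counts a move of at most 1.5 times. Values that passed in neither setting are among the 286. In the main comparison 5 IGHV genes passed, and the number was 3 with DESeq2 (IGHV1-85 and IGHV1-74 lost), 7 with TMM, 8 without IGHJ1 and IGHJ4 cells, and 0 both with long junctions from 60 bases and with V-encoded bases taken off, a choice made after seeing the data. Taking V-encoded bases off turned IGHV1-62-2/IGHV1-71 to -1.63, IGHV8-8 to -0.23 and IGHV1-26 to 0.14 (log2), and IGHV1-26 was 0.20 without IGHJ1 and IGHJ4 cells. Leaving out 1 library gave 3 to 6 genes, with 3 without the 5xFAD dCLN, WT sCLN or WT iLN. For light chains the number was 0 from 60 bases and 0 or 1 without 1 library, and IGKV1-117, near 0 in the main comparison, was 0.019 at 3 or more UMIs, 0.0078 with each clone once, and -0.21 to 0.22 without 1 library. The fit without the library block gave 6 IGHV genes and 1 light chain gene.

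The 5xFAD minus WT difference in the long share was -0.0064 points with each clone once, -0.23 from 60 bases and -0.25 to 0.63 without 1 node. From 60 bases, V mutation of switched cells was at 0.063 points, the light chain junction at -0.099 bases, 2 or more light chains at 2.51 points and no light chain at 0.075, and the genotype difference in 2 or more light chains was 3.48 points, with 1 measure of 1 sign in place of 3. With each clone once, the light chain junction was at -0.0076 bases, no light chain at 0.048 points and log2 UMIs at 0.0015. At 3 or more UMIs the light chain junction was at -0.0014 bases. Without 1 library the ranges were -0.028 to 0.029 bases, -0.79 to 0.41 points (2 or more light chains), -0.19 to 0.17 points (no light chain) and -0.018 to 0.011 (log2 UMIs). Without 1 node, 4 to 8 measures had 1 sign in the remaining 2, where 1 sign is likelier by chance than over 3 nodes. The cause was not tested in any of these. The genotype comparison of IGHV genes from 60 bases had no gene with enough cells and was not run. The 64 switched long cells and the 3 nodes limit the isotype, mutation and genotype comparisons.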
